A study of Mus musculus with 12 samples.

Results

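The genes described here are 9 of the 23513 genes in the count tables, namely the writers of DNA methylation Dnmt1, Dnmt3a and Dnmt3b with the Dnmt1 partner Uhrf1, the erasers Tet1, Tet2 and Tet3, and the readers Mbd1 and Mbd2. They were chosen by name with no threshold on a measured value, and with earlier results of these data known. Their levels were taken in the 25 clusters and 11 embryos of a snRNAseq study of the mouse cortex at embryonic day 14. Pregnant C57BL/6J dams received saline or 2.5 g/kg EtOH by intraperitoneal injection once a day from embryonic day 8 to 13, as the study's text gives it, and neither group carried a genetic change. The 5 saline embryos (S1-1, S1-2, S2-1, S2-2 and S2-4) came from dams S1 and S2, and the 6 EtOH embryos (E1-1, E1-2 and E2-1 to E2-4) from dams E1 and E2. Batch 1 held the embryos of S1 and E1 and batch 2 those of S2 and E2, so both treatments were present in each. A listed saline embryo, S2-3, was not used here. The paper states that a saline sample was removed because its cells were spread over the clusters differently from those of every other sample. With 2 dams per treatment, littermates were taken as independent in the tests below, and p-values therefore measured the spread between embryos and not between dams.

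DNA methylation is the addition of a methyl group to cytosine, mostly where a G follows it (a CpG). Dnmt1 copies methylation to the new strand after DNA replication and is brought to CpGs methylated on one strand only by Uhrf1, while Dnmt3a and Dnmt3b add methylation to unmethylated DNA. Tet enzymes oxidise methylcytosine, which starts its removal, and the proteins Mbd1 and Mbd2 bind methylated CpGs and bring repressor complexes to them. In the embryonic cortex, radial glial cells (RGCs) divide and give rise to intermediate progenitor cells (IPCs) and to projection neurons (PNs), while interneurons migrate in from the ventral forebrain.

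Reads were counted as UMIs, the unique molecular identifiers that mark single RNA molecules, and for each embryo and cluster the UMIs of a gene were added up and scaled to CPM, the counts per 1000000 UMIs. The 50550 nuclei comprised 11848 RGC nuclei (5 clusters), 4757 IPC nuclei (2 clusters), 16036 PN nuclei (8 clusters), 13749 interneuron nuclei (7 clusters) and 4160 nuclei of 3 other clusters. Embryos held 44017566 to 83061737 UMIs in the saline group and 14078316 to 38034349 in the EtOH group, and the median UMIs per nucleus lay between 6325 and 9051 against 4072 and 6911. Saline embryo S2-4 stood apart from its group, with a median of 6325 UMIs per nucleus against 8365 to 9051 in the other 4 saline embryos, so that only S2-4 lay in the range of the EtOH embryos, and EtOH results whose call or adjusted p passes 0.05 without it are given both ways. A total of 314 of 50226 distinct cell barcodes were found in more than 1 library. Doublets were not called here. Cluster names are those of the authors. The RGC markers (Hes1, Hes5, Pax6, Sox2, Slc1a3 and Vim) summed to 775 to 1218 CPM per embryo in RGCs and to at most 127 CPM in PNs. Embryos with fewer than 10 nuclei in a cluster were left out of its values, which removed 9 of 275 pairs of embryo and cluster. A level is only compared with other levels of the same gene, since the tables give no length of the counted RNA.

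The promoters of Dnmt1 and Uhrf1 are shown because the levels of both genes differed most, among the 9, between RGC nuclei high in S and in G2/M phase genes, and because each has a start site whose window holds letters of the kind that E2F factors, regulators of genes used in DNA replication, are known to bind. The search was for TTTGGCGC, TTTCGCGC, TTTCCCGC and TTTGCCGC on both strands, letters chosen after the levels had been seen. These were present in 744 of 32851 RefSeq windows of 300 bases (2.265%). Windows were given for 7 of the 9 genes, 12 in all, and matches were found in 1 of 3 windows of Dnmt1 and 1 of 2 windows of Uhrf1. Each sequence is from RefSeq on GRCm38.p6 and runs 5′ to 3′ on the strand of the gene, from 250 bases before a start site to 50 after it. Capitals mark the matches, which describe letters and not binding. The Dnmt1 window is chr9:20952574-20952873 on the minus strand and the Uhrf1 window is chr17:56304063-56304362 on the plus strand.
Dnmt1: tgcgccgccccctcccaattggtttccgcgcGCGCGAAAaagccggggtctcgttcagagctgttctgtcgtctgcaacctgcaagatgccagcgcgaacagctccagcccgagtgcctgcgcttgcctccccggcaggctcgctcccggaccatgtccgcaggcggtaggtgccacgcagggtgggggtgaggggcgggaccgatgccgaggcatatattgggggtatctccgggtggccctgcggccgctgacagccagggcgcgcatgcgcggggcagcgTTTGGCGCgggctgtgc
Uhrf1: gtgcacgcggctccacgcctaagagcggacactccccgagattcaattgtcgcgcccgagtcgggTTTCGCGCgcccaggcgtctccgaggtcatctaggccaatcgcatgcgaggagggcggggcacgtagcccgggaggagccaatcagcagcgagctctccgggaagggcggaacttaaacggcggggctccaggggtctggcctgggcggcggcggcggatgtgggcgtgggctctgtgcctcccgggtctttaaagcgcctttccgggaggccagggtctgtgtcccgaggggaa
Both windows hold 33 CpGs, more than 91.4% of all windows.

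The maintenance genes Dnmt1 and Uhrf1 were highest in progenitor clusters. Dnmt1 lies on chromosome 9 of GRCm38 from 20907209 to 20959888. Its level in Cluster 3 (interneuron precursors, grouped with the RGCs) was 80.8 ± 13.2 CPM (SD, n = 11). Cluster 12 (non-mitotic RGCs) and Cluster 2 (RGC 1) both had 76.9 CPM, with embryos of Cluster 2 between 58.5 and 92.6 CPM. Mitotic IPCs (Cluster 17) had 72.3 ± 12.4 CPM and late interneuron precursors (Cluster 10) had 68.4 ± 15.1 CPM. RGC Cluster 20 followed at 47.1 CPM, and the remaining clusters lay between 22.3 CPM (Cluster 24, PN 2) and 38.1 CPM (Cluster 19). All 24 neighbouring steps in this order were smaller than the SD of the paired difference between embryos. The level in Cluster 24 was 3.62 times lower than in Cluster 3, and the share of free RNA in the low levels of neuronal clusters was not measured.

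Uhrf1, on chromosome 17 from 56303321 to 56323486, had the steepest pattern. Cluster 3 had 67.3 ± 10.8 CPM (SD, n = 11), Cluster 12 had 63.9 CPM and Cluster 2 had 51.8 ± 9.70 CPM. Clusters 17 and 10 both had 36.0 CPM, Cluster 20 had 31.1 CPM and the cortical hem RGCs of Cluster 21 had 22.1 CPM. It was at 10.7 ± 4.82 CPM in non-mitotic IPCs (Cluster 6), and every other cluster was below 7 CPM. The steps from Cluster 2 to Cluster 17 and from Cluster 21 to Cluster 6 exceeded the SD of the paired difference, and the other 22 did not. The share of nuclei with a Uhrf1 UMI was 30.1% in Cluster 2 and 0.903% in Cluster 24, where the median depth was higher (9700 against 7486 UMIs). With each nucleus thinned to 2000 UMIs, the shares were 10.4% and 0.140%. Free RNA in the droplets was not measured.

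Dnmt3a, on chromosome 12 from 3806007 to 3914443, was highest in RGCs, lowest in early PNs and high again in some PN clusters. Cluster 12 had 315 ± 41.3 CPM (SD, n = 11) and Cluster 2 had 306 ± 23.3 CPM, with embryos of Cluster 2 between 271 and 346 CPM. Cluster 17 had 125 CPM, Cluster 6 had 74.1 ± 8.68 CPM and early PNs (Cluster 9) had 24.8 ± 6.80 CPM, with all 11 embryos between 14.5 and 35.0 CPM. Of the callosal PN clusters, Cluster 1 had 52.7 ± 12.4 CPM and Cluster 22 had 140 ± 23.7 CPM. PN Cluster 25 had 224 ± 32.5 CPM in the 7 embryos with enough nuclei. The embryos of Cluster 22, between 99.7 and 197 CPM, did not overlap with those of Cluster 9. Within embryos, Cluster 22 exceeded Cluster 9 in 11 of 11 embryos, by 2.49 ± 0.45 on the log2(CPM + 1) scale. Of the 24 neighbouring steps in its order, 20 were within the SD of the paired difference, and those from Cluster 2 to 21, 11 to 22, 4 to 1 and 1 to 9 exceeded it. The gene overlaps Dnmt3aos on the opposite strand, and the strand that was counted is not given in the sources used here.

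Dnmt3b, on chromosome 2 from 153649450 to 153687730, was low throughout. Its highest mean was 17.1 ± 3.57 CPM (Cluster 2) and its lowest 3.23 CPM (Cluster 19). RGC Clusters 2, 21, 20, 3 and 12 held the first 5 ranks, and no neighbouring step exceeded the SD of the paired difference. This gene also overlaps an opposite-strand gene, Dnmt3bos.

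**Figure D1:**
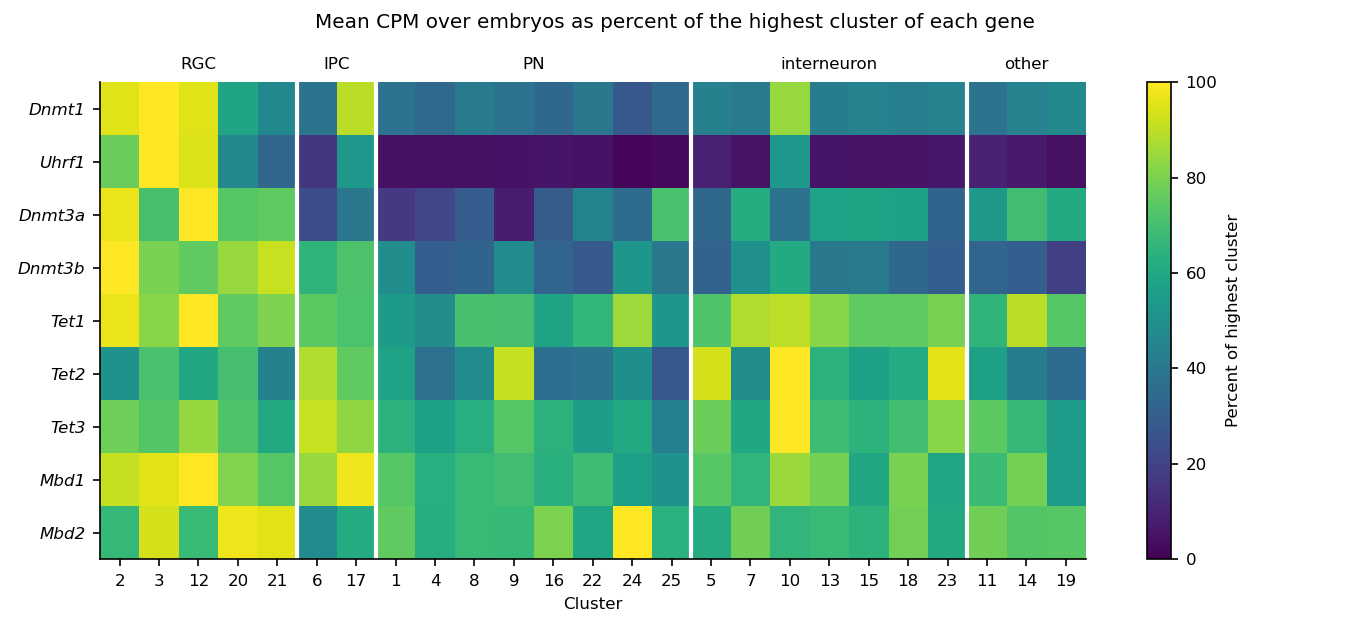
Mean CPM of each gene (rows) in each cluster (columns, grouped by major cell type) as percent of that gene's highest cluster. Uhrf1 is near 0 outside the progenitor clusters, Dnmt3a is lowest in early PN Cluster 9, and Tet2 and Tet3 are highest in Cluster 10.

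Tet2 and Tet3 were highest in other clusters than the writers, while Tet1 shared its first 2 clusters with Dnmt3a. Tet2, on chromosome 3 from 133463679 to 133545139, was highest in late precursor, migrating interneuron, early PN and non-mitotic IPC clusters, with 206 ± 18.1 CPM for Cluster 10. The migrating interneurons of Clusters 23 and 5 had 198 and 193 CPM, early PNs (Cluster 9) 188 ± 13.8 CPM and non-mitotic IPCs (Cluster 6) 182 ± 10.2 CPM. Cluster 2 had 105 ± 7.66 CPM, with embryos between 86.1 and 113 CPM, all below the 156 to 198 CPM of Cluster 6. Among the PN clusters, Cluster 1 had 119 CPM, Cluster 22 had 79.5 CPM and Cluster 25 was the lowest of all 25 with a mean of 57.0 CPM. Within embryos, Cluster 9 exceeded Cluster 1 in 11 of 11, by 0.66 ± 0.15 on the log2 scale. Thus Tet2 was near its highest level in the cluster where Dnmt3a was lowest, while over all 25 cluster means the correlation of the genes was weak (Pearson r = -0.31 on the log2 scale, given as a description).

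Tet3, on chromosome 6 from 83362373 to 83459084, was highest in Cluster 10 (293 ± 32.7 CPM) and Cluster 6 (268 CPM) and lowest in Cluster 25 (126 ± 34.5 CPM), a ratio of 2.32. Its profile over the 25 cluster means was close to that of Tet2 (r = 0.86). Tet1, on chromosome 10 from 62804570 to 62908996, was highest in Cluster 12 (95.3 ± 18.2 CPM) and Cluster 2 (92.6 CPM) and lowest in the rostral subcortical PNs of Cluster 4 (47.1 ± 3.93 CPM). Neighbouring Tet1 steps were all within the SD, as were 22 of 24 for Tet2 (all but Cluster 6 to 17 and 11 to 2) and 22 of 24 for Tet3 (all but Cluster 6 to 12 and 19 to 25). Tet2 and Tet3 overlap the opposite-strand genes Gm42567 and B230319C09Rik.

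The readers varied little between clusters, with a highest mean 1.95 times the lowest for Mbd1 and 2.08 times for Mbd2, beside 2.03 times for Tet1. Mbd1, on chromosome 18 from 74267605 to 74282732, lay between 37.8 ± 8.90 CPM in Cluster 12 and 19.4 ± 9.87 CPM in Cluster 25. Mbd2, on the same chromosome from 70568189 to 70626131, lay between 77.7 ± 32.1 CPM in Cluster 24 and 37.3 ± 5.07 CPM in Cluster 6. RGC Clusters 20, 21 and 3 followed Cluster 24 for Mbd2, at 75.7, 74.3 and 72.6 CPM. For both genes all neighbouring steps were within the SD.

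**Figure D2:**
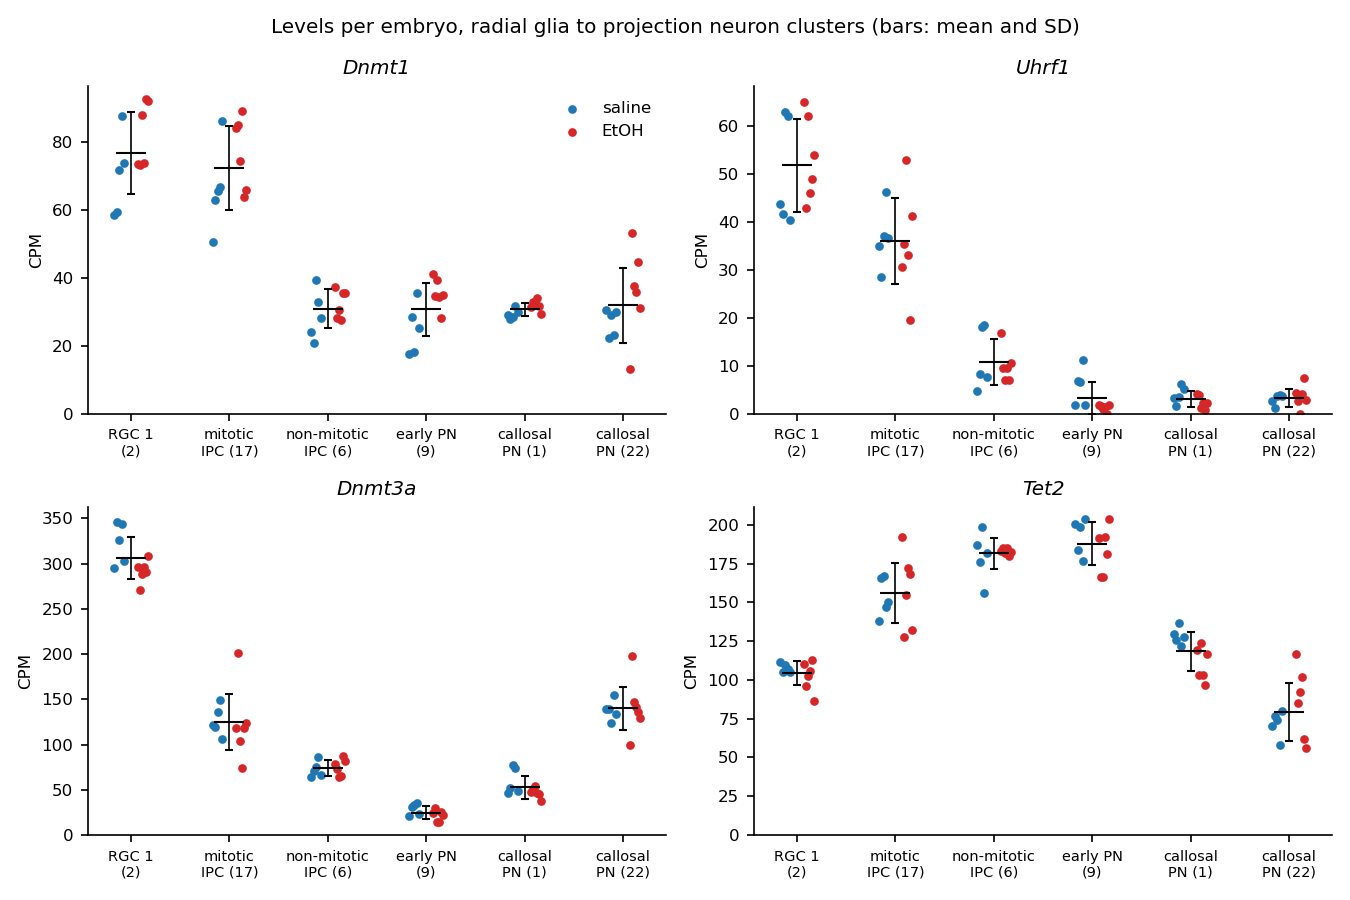
CPM per embryo (blue saline, red EtOH) of 4 genes in clusters from RGCs to PNs, with mean and SD over embryos as bars. Dnmt1 and Uhrf1 drop between mitotic and non-mitotic IPCs, Dnmt3a is lowest in early PNs and higher in Cluster 22, and Tet2 is highest in Clusters 6 and 9.

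Between the major cell types, RGCs exceeded PNs in CPM within all 11 embryos for Dnmt1, Dnmt3a, Dnmt3b, Uhrf1, Tet1, Tet2, Tet3 and Mbd1, and within 10 for Mbd2, an order that turned around for Tet2, Tet3 and Mbd2 under TMM scaling. The log2 ratio of RGC to PN was 3.81 ± 0.36 (SD, n = 11) for Uhrf1, 1.89 ± 0.24 for Dnmt3a, 1.28 ± 0.17 for Dnmt1 and 1.15 ± 0.14 for Dnmt3b. It was 0.60 ± 0.12 for Tet1, 0.43 ± 0.16 for Mbd1, 0.31 ± 0.05 for Tet3, 0.26 ± 0.13 for Tet2 and 0.16 ± 0.14 for Mbd2. Scaling by TMM, which sets most genes equal between the types, lowered all 9 ratios (the mean log2 ratio of the scaling factors was 0.37) and turned those of Tet2 (-0.11), Tet3 (-0.06) and Mbd2 (-0.20) to the other side of 0. Tet2 was lower in RGCs than in IPCs in 11 of 11 embryos (log2 ratio -0.50 ± 0.09). Mbd2 was higher in RGCs than in IPCs in 11 of 11 embryos (0.57 ± 0.17). TMM scaling was run for RGCs against PNs only.

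The genes whose profiles over the 25 cluster means were most like those of the members were found among 8994 genes with a mean of at least 10 CPM. For Uhrf1 these were Rmi2, Srsf10, Chaf1a, Tyms and Zgrf1, with r between 0.977 and 0.985, and for Dnmt1 Orc6, Prim2, Cenpu, Dut and Smc6, with r between 0.939 and 0.948. For Dnmt3a they were Pacs1, Zfp523, Wdr31, Fam120c and Tasp1 (r at most 0.903), and for Dnmt3b Eif4a2, Knop1, Sfxn5, Tor1aip2 and Mphosph8 (at most 0.908). Tet1 was most like Map3k4, Btbd1, Phtf2, Cep350 and Rnpc3 (at most 0.844). Tet2 was most like Abi1, Naa35, Rnf214, Yme1l1 and Map4k4 (at most 0.924), and Tet3 like Map4k4, Acin1, Ehmt1, Bmpr2 and Dhx36 (at most 0.959). Mbd1 was most like Pcmt1, Sdf4, Eed, Aimp1 and Ube2v2 (at most 0.932), and Mbd2 like Sntb1, Capn10, Nphp4, Lamc1 and Mok (at most 0.754). The summed S phase genes of the study had r = 0.98 with Uhrf1, 0.92 with Dnmt1, 0.84 with Mbd1, 0.81 with Dnmt3b and 0.67 with Tet3 over the 25 clusters, and between 0.08 and 0.52 with the other 4 members, and Dnmt1 had r = 0.92 with Uhrf1. The summed G2/M phase genes had r = 0.91 with Uhrf1, 0.85 with Dnmt1, 0.77 with Dnmt3b, 0.72 with Mbd1 and 0.56 with Tet3. With the other 4 members their r lay between 0.17 and 0.42. The clusters were made from the same nuclei, share libraries and differ in depth, so these values are descriptions.

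To compare levels within the RGC clusters, nuclei were split by whether they had more UMIs of the 9 S phase genes or of the 12 G2/M phase genes that the authors list, none of which is a member. The 5 RGC clusters were split unequally, since nuclei with a UMI of neither list made up 2.99% of Cluster 2 and between 9.03% and 17.7% of the other 4, and S nuclei between 35.9% (Cluster 21) and 65.4% (Cluster 12). Of the RGC nuclei, 5449 had more of the S genes, 4760 more of the G2/M genes, 964 a UMI of neither and 675 equal numbers of both, which were left out. Uhrf1 per embryo lay between 69.6 and 99.3 CPM in the S nuclei (median 88.0), between 26.9 and 44.6 CPM in the G2/M nuclei (median 33.4) and between 6.31 and 18.5 CPM in nuclei with neither (median 9.58). These 3 ranges did not overlap. Uhrf1 was higher in S than in G2/M nuclei in 11 of 11 embryos, by 1.36 ± 0.24 on the log2 scale (exact sign-flip permutation test, two-sided, adjusted p = 0.00377 over 27 tests, from 0.000977, the smallest p the test can give with 11 embryos).

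Dnmt1 had the same order. It lay between 74.4 and 119 CPM in S nuclei (median 103), between 42.9 and 74.9 CPM in G2/M nuclei (median 59.9) and between 22.6 and 44.8 CPM in nuclei with neither (median 33.9). S exceeded G2/M in 11 of 11 embryos, by 0.71 ± 0.20 (adjusted p = 0.00377, same permutation test). Dnmt3a was higher in S than in G2/M nuclei in 10 of 11 embryos but by less, 0.18 ± 0.12 (adjusted p = 0.00586, permutation test), at 291 against 257 CPM. Tet2 was lower in S than in nuclei with neither in 11 of 11 embryos, by 0.32 on the log2 scale (log2 ratio -0.32 ± 0.15, adjusted p = 0.00377, permutation test), at 120 against 150 CPM. It was also lower in G2/M nuclei than in nuclei with neither, in 10 of 11 embryos (-0.31 ± 0.20, adjusted p = 0.00586, permutation test). For Tet1, Tet3, Mbd1 and Mbd2 the adjusted p of S against G2/M lay between 0.402 and 0.938, and for Dnmt3b it was 0.0551 (log2 ratio -0.30 ± 0.41). Median depth was 6013 UMIs in S, 7766.5 in G2/M and 4581 in nuclei with neither, and the part of depth in these differences was not tested. Within Cluster 2 alone, S exceeded G2/M nuclei in 11 of 11 embryos for Uhrf1 (1.42 ± 0.36), Dnmt1 (0.82 ± 0.17) and Dnmt3a (0.18 ± 0.10), each with an adjusted p of 0.00659 (permutation test). Tet2 was lower in S nuclei than in nuclei with neither in 10 of 11 embryos (-0.77 ± 0.56, adjusted p = 0.00879, permutation test), on 126 Tet2 UMIs from the 130 Cluster 2 nuclei with neither, of which each embryo had between 2 and 20. The part of cluster membership in the pooled values was not tested further.

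**Figure D3:**
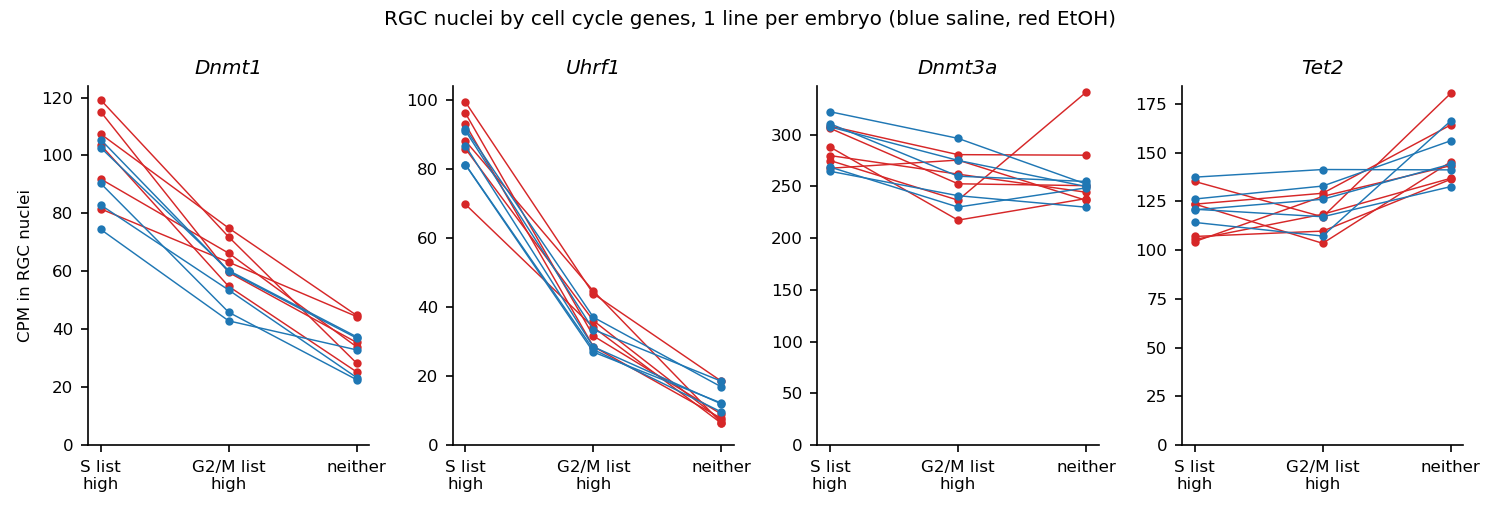
CPM in RGC nuclei with more S genes, more G2/M genes or neither, 1 line per embryo (blue saline, red EtOH). Every line of Dnmt1 and Uhrf1 falls from S to G2/M to neither, Dnmt3a falls slightly from S to G2/M, and Tet2 is higher in nuclei with neither.

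EtOH against saline was tested with edgeR on the summed counts, and calls needed both an adjusted p under 0.05 and a rise of over 25% or a fall of over 20%, the limits of the study. No member was called in any of the 192 tests of a member in a cluster, where 0.792% of all tests of a gene in a cluster were called. None was called in the 45 tests in the 5 major cell types either, where 3.75% of all tests were called (3.79% in RGCs, 1.52% in IPCs, 6.53% in PNs and 4.83% in interneurons). At an unadjusted p under 0.05 there were 23 of 192 tests in clusters (background 17.4%) and 10 of 45 in cell types (background 27.7%). The remaining 33 pairs of member and cluster had too few counts to be tested, of which 16 were of Uhrf1 and 12 of Dnmt3b. DESeq2, which called 8% of all tests in cell types and 2.6% in clusters, called 1 member in a cell type (Mbd2 in IPCs) and none in a cluster. The median log2 fold change of the 9 members was -0.08 in RGCs, -0.04 in IPCs, -0.07 in PNs, -0.08 in interneurons and -0.05 in other clusters, beside medians of all tested genes between 0.00 and 0.01. The calls depended on S2-4, since without it 8.78% of all tests in clusters and 16.9% in cell types were called, and 2 tests of members in each (Dnmt3a in Cluster 1 with an edgeR adjusted p of 0.0357 against 0.139 with all embryos, Mbd1 in Cluster 12 with 0.0235 against 0.163, and Mbd1 and Mbd2 in IPCs). Another 2 tests in clusters and 5 in cell types then had an adjusted p under 0.05 but not the fold for a call. Without S2-4 the groups do not overlap in median UMIs per nucleus, so depth and EtOH cannot be told apart there. With all embryos, only S2-4 lay in the EtOH range of median depth, and total UMIs per embryo did not overlap. Depth and EtOH therefore cannot be told apart well in the fits with all embryos either. Without any other single embryo no member was called, and at most 1.93% of all tests in cell types were. A level per cell type cannot tell a change in every nucleus from a change in the mix of clusters.

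Mbd1 had the smallest adjusted p of the cell type tests. In PNs its level was 20.97, 21.7, 21.3, 24.2 and 26.1 CPM in saline embryos S1-1, S1-2, S2-1, S2-2 and S2-4, and 24.9, 30.9, 27.3, 25.9, 29.9 and 26.2 CPM in EtOH embryos E1-1, E1-2, E2-1, E2-2, E2-3 and E2-4. Saline embryo S2-4, the only one in the depth range of the EtOH embryos, overlapped with the EtOH group. In the values without S2-4, depth and EtOH cannot be told apart, and with it not well. The edgeR log2 fold change was 0.22 ± 0.07 (SE, adjusted p = 0.0548), or 0.26 ± 0.07 without S2-4 (adjusted p = 0.0114). In RGCs the log2 fold change was 0.25 ± 0.09 (SE, edgeR adjusted p = 0.079, or 0.0146 without S2-4). In IPCs it was 0.31 ± 0.13 (edgeR adjusted p = 0.152, or 0.0236 without S2-4). The log2 fold change of Mbd1 was above 0 in all 5 cell types and in 19 of 22 clusters tested. Clusters share embryos, and Dnmt1 was above 0 in 20 of 23 clusters and Tet3 below 0 in 20 of 25. The mean of Mbd1 was higher in EtOH embryos within both batches in all 5 cell types. In interneurons its log2 fold change was 0.14 ± 0.07 (edgeR adjusted p = 0.193), or 0.19 without S2-4 (0.0469). Cluster 14 (layer I neurons) is picked from 192 tests of a member in a cluster. Mbd1 was there at 19.1 to 26.5 CPM in saline and 30.7 to 43.9 CPM in EtOH embryos, on 11 to 69 UMIs per embryo. How many genes had groups without overlap there was not counted. The edgeR log2 fold change was 0.60 ± 0.15 (adjusted p = 0.102, with 0.244% of genes called there).

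Mbd2 had the other small adjusted p. In IPCs it was at 41.3, 42.2, 50.3, 45.5 and 44.6 CPM in the saline embryos in the order above, and at 35.0, 42.7, 38.5, 35.6, 34.9 and 35.8 CPM in the EtOH embryos. Only EtOH embryo E1-2 lay within the saline range. The means were 41.8 and 38.9 CPM in batch 1 and 46.8 and 36.2 CPM in batch 2. RGC markers in the same IPC sums had a mean of 295 CPM in saline and 361 CPM in EtOH embryos, and the PN marker Neurod2 was called lower in IPCs (-0.49 ± 0.12), and their part was not tested. The log2 fold change was -0.34 ± 0.09 (SE, edgeR adjusted p = 0.0568), and with counts summed per dam it was -0.34 with an edgeR adjusted p of 0.261. Without S2-4 the edgeR adjusted p was 0.016, which made it a call. In interneurons Mbd2 had a log2 fold change of -0.14 ± 0.06 (edgeR adjusted p = 0.141), or -0.19 without S2-4 (0.0197).

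Among the writers, Dnmt3a in PNs lay between 65.9 and 95.5 CPM in saline and between 56.8 and 79.6 CPM in EtOH embryos, with a log2 fold change of -0.27 ± 0.10 (SE, edgeR adjusted p = 0.096, or 0.0448 without S2-4). The difference lay in batch 2 (means of 86.8 CPM in saline and 67.9 CPM in EtOH embryos), with 69.0 and 68.2 CPM in batch 1. In Cluster 2 the log2 fold change of Dnmt3a was -0.20 ± 0.06 (edgeR adjusted p = 0.0827, or 0.0106 without S2-4). In Cluster 1, where it was called without S2-4, that fit gave -0.44 ± 0.14. With all embryos, Dnmt3a means in Cluster 1 were 48.7 CPM in saline and 49.2 CPM in EtOH embryos in batch 1. In batch 2 they were 66.8 and 45.8 CPM. Uhrf1 in PNs was at 2.64 to 6.30 CPM in saline and 1.42 to 3.48 CPM in EtOH embryos (log2 fold change -0.58 ± 0.25, edgeR adjusted p = 0.12), with saline embryo S2-2 well above the other 10. Without S2-2 it was -0.33 ± 0.21 (edgeR adjusted p = 0.282), and the batches went opposite ways, with means of 2.72 and 2.98 CPM in batch 1 and 4.39 and 2.30 CPM in batch 2. In RGCs, where its level is high, Uhrf1 had a log2 fold change of 0.01 ± 0.09 (edgeR adjusted p = 0.957). Dnmt1 was above 0 in all 5 cell types, between 0.08 and 0.15 on the log2 scale, with a smallest edgeR adjusted p of 0.251. Within both batches its mean was higher in EtOH embryos in RGCs, interneurons and the other clusters, but not in IPCs and PNs. In batch 2 its mean was lower in EtOH embryos in IPCs (44.6 against 47.2 CPM) and PNs (30.2 against 30.8 CPM), and in batch 1 higher in both (49.8 against 32.2 CPM and 32.3 against 25.01 CPM). Of the erasers, Tet2 in Cluster 1 had a log2 fold change of -0.26 ± 0.07 (edgeR adjusted p = 0.0552, or 0.0132 without S2-4). In the cell types the Tet genes had no common direction that held under both scalings. The edgeR log2 fold changes, which use TMM, lay between -0.16 and -0.000857, while the mean CPM was higher in EtOH embryos in 5 of the 15 pairs of Tet gene and cell type (Tet1 in PNs and interneurons, Tet2 in IPCs, and Tet3 in IPCs and the other clusters).

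**Figure D4:**
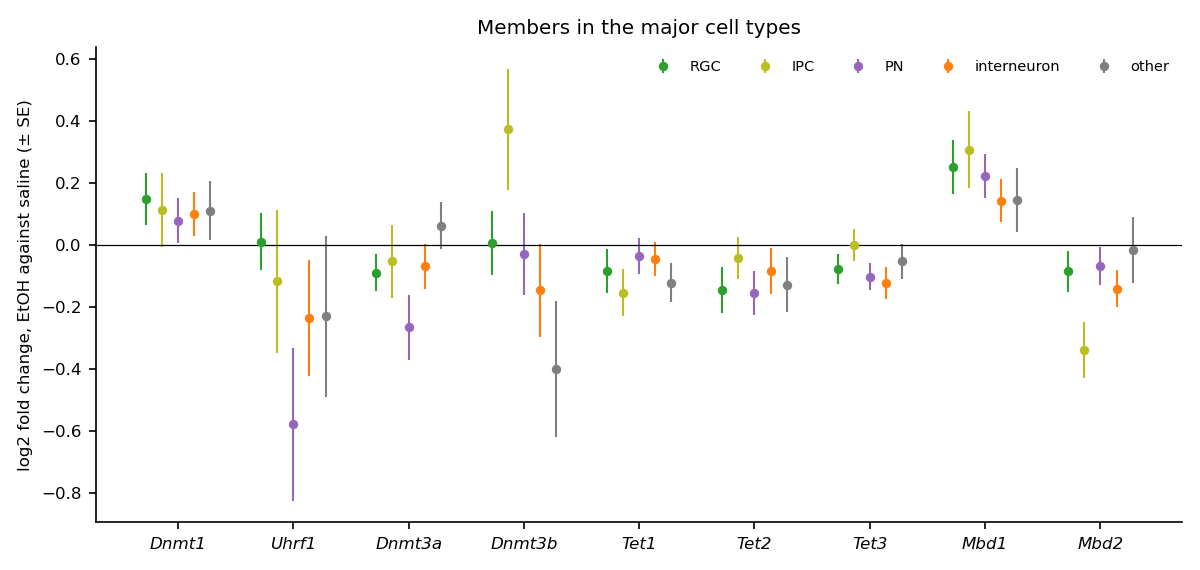
edgeR log2 fold change of EtOH against saline (± SE) for each gene in the 5 major cell types. Mbd1 and Dnmt1 lie above 0 in all 5 (Dnmt1 not within batch 2 in IPCs and PNs), the Tet genes lie between -0.16 and 0 under the TMM scaling used here but not all in mean CPM, and no value passed the test.

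**Figure D5:**
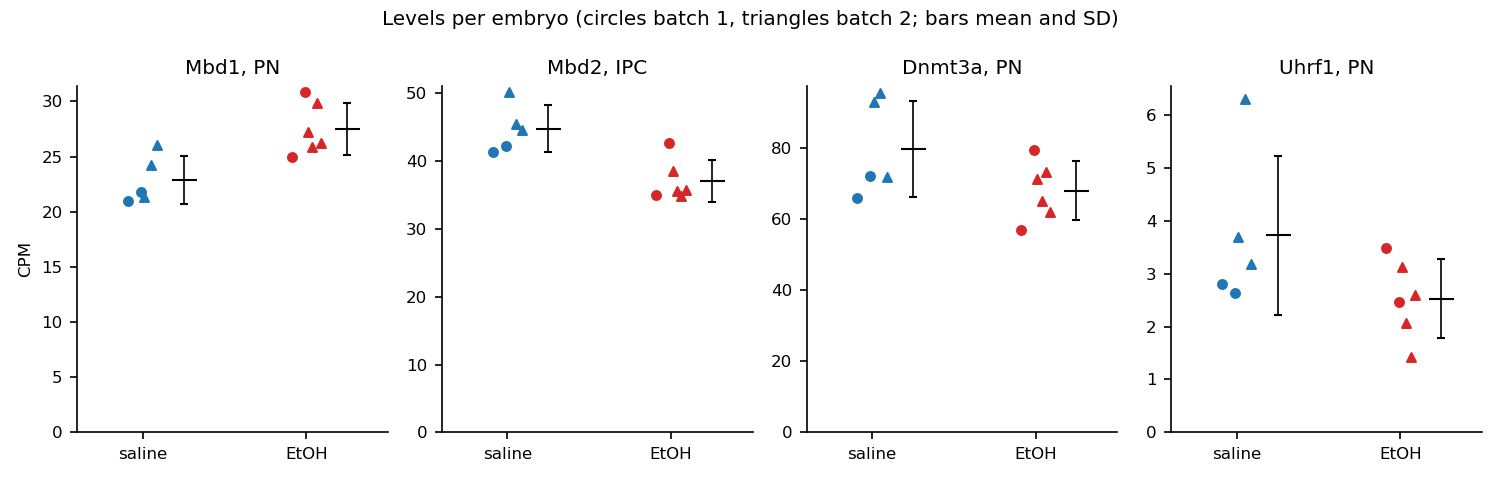
CPM per embryo in the saline and EtOH groups for 4 pairs of gene and cell type with an unadjusted p under 0.05, with mean and SD beside the points. The groups overlap in all 4 panels.

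The share of nuclei with a UMI was compared after thinning to 2000 UMIs, since EtOH nuclei were shallower. None of 45 comparisons passed (smallest adjusted p = 0.195, exact permutation test over all splits of the embryos, two-sided), and 7 had an unadjusted p under 0.05. The smallest p was for Mbd2 in IPCs, at 7.90% ± 0.47 (SD, n = 5) in saline and 6.47% ± 0.60 (SD, n = 6) after EtOH (exact permutation p = 0.00433, 0.00476 within batches). Unthinned, 27 of the 45 shares differed at an adjusted p under 0.05, for instance that of Mbd2 in IPCs, with 17.4% in EtOH embryos. Thinning left out 177 saline and 210 EtOH nuclei under 2000 UMIs.

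Whether the EtOH effect differed between cell types was tested on the ratio of levels within an embryo, over RGCs, PNs and interneurons. None of 27 differences passed. For Uhrf1, the RGC to PN log2 ratio averaged 3.55 ± 0.27 over the 5 saline embryos and 4.04 ± 0.27 over the 6 EtOH embryos (SD) (exact permutation test, p = 0.00433, adjusted p = 0.117, and 0.129 within batches). The difference lay mostly in batch 2 (3.43 and 4.15), with 3.73 and 3.82 in batch 1. Without saline embryo S2-2, whose PN level stood out, the ratios were 3.66 and 4.04. Uhrf1 in PNs lay between 1.42 and 6.30 CPM per embryo, beside the pseudocount of 1 CPM.

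Other genes of DNA methylation were taken as 5 lists. Of the 9 genes listed as other readers, 1 of 183 tests in clusters and 4 of 45 in cell types were called. Of all tests, 0.792% and 3.75% were called. Binding of the proteins of these 9 genes to methylated CpGs was not measured. Mbd4, a DNA glycosylase that binds methylated CpGs, was at 12.7 to 18.2 CPM in saline and 8.68 to 10.7 CPM in EtOH embryos in Cluster 1. Its log2 fold change there was -0.62 ± 0.15 (edgeR adjusted p = 0.0393, with 3.26% of genes called). It also fell in RGCs (-0.36 ± 0.09) and PNs (-0.33 ± 0.09). Mbd3, a subunit of the NuRD repressor complex, rose in RGCs, from 15.3 to 24.8 CPM in saline embryos to 23.7 to 33.2 CPM in EtOH embryos (0.50 ± 0.11, edgeR adjusted p = 0.0402), and in PNs (0.50 ± 0.14).

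Of the 11 partners of the writers, 10 could be tested, with 1 call in 213 tests in clusters and 4 in 50 in cell types, all lower, beside the same 0.792% and 3.75%. Hells, a chromatin remodeller needed for DNA methylation, fell in Cluster 16, PNs, interneurons and the other clusters, with log2 fold changes of -1.37 ± 0.26, -0.74 ± 0.18, -0.40 ± 0.09 and -0.69 ± 0.14. The edgeR adjusted p was 0.0281 in Cluster 16, where 0.529% of genes were called. Hells in PNs had a median of 22.7 CPM in saline and 14.5 CPM in EtOH embryos, and the groups overlapped. Cdca7, which activates Hells, fell in PNs by 0.73 on the log2 scale, from 4.50 to 7.95 CPM in saline to 2.55 to 4.72 CPM in EtOH embryos. Of the 7 CXXC and CpG island proteins, Cxxc4 was called in Cluster 1 (-1.37 ± 0.30), 1 of 158 tests in clusters, and none of 35 tests in cell types was. None of the 7 genes of oxidised base removal was called, of which 6 could be tested, nor any of the 9 genes of the methyl donor and folate cycle. The smallest p values of these lists were those of Smug1 (0.29 ± 0.12), Tdg (0.14 ± 0.06) and Gadd45g (0.36 ± 0.17) in RGCs, and of Mat2a (0.23 ± 0.07) and Mat2b (-0.30 ± 0.10) in interneurons and Mtr (-0.23 ± 0.08) in PNs, with edgeR adjusted p values between 0.0634 and 0.163. Mat2b in interneurons was called by both versions of voom with the dam block and in no other alternative.

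These 11 calls in the lists kept their direction in every alternative but often not their call. Within batches the direction held in both for 10 of them, while Hells in interneurons had means of 38.6 and 39.3 CPM in batch 1 and 43.5 and 30.8 CPM in batch 2. With 1 embryo left out, each held in 1 to 4 of 11 fits. All 11 held without S2-4, where adjusted p values were smaller and 8.78% of all tests in clusters and 16.9% in cell types were called. None held without saline embryo S1-1 or EtOH embryo E1-2, E2-2, E2-3 or E2-4. In those fits at most 0.185% of all tests in clusters and 0.597% in cell types were called. Under the other 7 or 8 alternatives, each held in 3 to 8. With counts summed per dam, Cxxc4 in Cluster 1 (edgeR adjusted p = 0.00879) and Hells in PNs (0.0495) held. The other 9 did not, with edgeR adjusted p values between 0.0569 and 0.219. Summed per dam, 0.721% of all tests in clusters and 1.23% in cell types were called.

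List medians over the cell type tests were -0.12 for the other readers, -0.14 for the partners, 0.05 for oxidised base removal, -0.05 for the CXXC proteins and -0.08 for the methyl donor genes, beside 0.01 for all genes. Of the proliferation markers, Mki67 was called lower in RGCs (-0.38 ± 0.07), IPCs (-0.39 ± 0.08), interneurons (-0.57 ± 0.13) and the other clusters (-0.69 ± 0.15), calls that each held in 2 or 3 of 11 fits with 1 embryo left out. Top2a was called in none of the 5 cell types. Its log2 fold change was 0.08 in RGCs, 0.06 in IPCs, 0.10 in the other clusters and -0.16 in interneurons. In PNs, where Hells and Cdca7 were called, neither passed (Mki67 -0.76, edgeR adjusted p = 0.0519, and Top2a -0.46, edgeR adjusted p = 0.175), and together they summed to 37.3 to 71.2 CPM in saline and 22.8 to 45.2 CPM in EtOH embryos. Markers of other cell types differed in the same PN sums. The 3 IPC markers had a mean of 37.4 CPM in saline and 25.3 CPM in EtOH embryos. The 4 interneuron markers had a mean of 74.1 CPM in saline and 44.7 CPM in EtOH embryos. In PNs, the IPC markers Eomes (-0.66 ± 0.14) and Neurog2 (-0.71 ± 0.11), the interneuron marker Dlx1 (-0.60 ± 0.16) and the PN marker Neurod2 (-0.68 ± 0.12) were called lower, as was the pericyte marker Mcam (-0.90 ± 0.25). Microglia markers (P2ry12, Ly86, Cx3cr1 and Csf1r), none of them at 0, summed to 14.4 to 40.5 CPM in saline and 38.3 to 48.2 CPM in EtOH RGCs, and to 8.91 to 21.2 CPM in saline and 18.4 to 27.4 CPM in EtOH PNs. Of these, P2ry12 was called higher in PNs (0.84 ± 0.20) and interneurons (0.76 ± 0.19), and Cx3cr1 in PNs (0.71 ± 0.19) and RGCs (0.70 ± 0.18). With 1 embryo left out, the calls of these markers held in 1 to 6 of 11 fits each (6 for Eomes, Neurog2 and Neurod2 in PNs). None held without S1-2, S2-1, E2-2 or E2-3, where at most 0.169% of all tests in cell types were called. Their part in the results was not tested.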

How the data were processed

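The authors made snRNAseq libraries with 10X Single Cell 3′ V3.1 chemistry, aligned and counted reads with Cell Ranger on mm10, filtered and clustered nuclei, and deposited 1 table of raw UMI counts per embryo and cluster (275 tables). Values were checked to be whole numbers. Filters, cluster names and a saline embryo not used here follow the authors. The strand counted is not given in the sources used here.

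Counts were summed per embryo and cluster or major cell type with Python 3.11.15 (NumPy 2.4.6, SciPy 1.17.1, pandas 2.3.3, matplotlib 3.10.9). EtOH was tested against saline with edgeR 4.0.16 in R 4.3.3 (TMM, filterByExpr, robust quasi-likelihood, at least 10 nuclei per embryo and 2 embryos per group), with Benjamini-Hochberg adjustment over all genes of a unit. Shares and ratios were tested by exact permutation. Log2 ratios of levels used a pseudocount of 1 CPM. Alternatives were DESeq2 1.42.0, limma 3.58.1 (voom, dam as random block), other scaling and filters, batch, sums per dam and each embryo left out. Positions are from GENCODE M21 on GRCm38.

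The main edgeR fit, DESeq2 and both versions of voom were tested on simulated sums of RGCs and IPCs. Single clusters and the other alternatives were not simulated. With no dam effect simulated, voom with the dam block made more false calls than edgeR, because the estimated correlation within dams was negative, and setting a negative correlation to 0 removed the excess. That version was therefore added after the data had been seen. With a dam effect simulated, edgeR and DESeq2 made many false calls. In the data, the estimated correlation within dams lay between -0.009 and 0.045 in the 5 cell types and between -0.151 and 0.028 in the 25 clusters.

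The members, lists and named genes (all members, the 5 most similar genes of each, other genes called or with the 3 smallest p values of a list, and markers a result touches) were chosen with earlier results of these data known. The cluster pairs compared within embryos, the SD criterion for neighbours and the promoter letters were chosen after levels had been seen.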

Additional observations from a re-analysis of the deposited data

Results flagged for a closer look

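Of 90 groups of embryos (9 genes, 5 cell types, 2 treatments), 5 held an embryo far from the others by Dixon's ratio, where chance gives about 1 in 20, or 4.5. These were Dnmt1 in IPCs at 54.1 CPM in EtOH embryo E1-1 (others 41.5 to 46.1 CPM), Uhrf1 in PNs at 6.30 CPM in saline embryo S2-2 (others 2.64 to 3.69 CPM), Tet1 in PNs at 64.9 CPM in EtOH embryo E1-2 (others 53.0 to 57.3 CPM), Tet3 in the other clusters at 228 CPM in EtOH embryo E1-1 (others 192 to 205 CPM) and Mbd1 in interneurons at 30.7 CPM in saline embryo S2-4 (others 23.4 to 24.6 CPM). No difference of the EtOH effect between cell types passed its test.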

How the results depend on the processing

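No member was called in clusters or cell types by edgeR with RLE scaling (0.81% and 4.03% of all tests called) or batch as a covariate (0.419% and 2.3%). The same held with sums per dam (0.721% and 1.23%) and, in clusters, with at least 20 nuclei (0.792%). Voom with a negative correlation within dams set to 0, an alternative added after the data had been seen, called no member either (2.55% and 6.56%). Without a filter on low counts, 2 were called in clusters (Dnmt3a in Cluster 1 and Uhrf1 in Cluster 9) and 1 in cell types (Mbd2 in IPCs), where 2.07% and 2.63% of all tests were called. DESeq2 called 1 in cell types (Mbd2 in IPCs; 8% of all tests), and voom with the dam block as first planned called 1 in clusters (Mbd1 in Cluster 14; 2.97% of all tests), a call lost once the negative correlation was set to 0. Leaving out 1 embryo gave 0 to 2 calls in clusters and 0 to 2 in cell types, and calls arose only without saline embryo S2-4 (Dnmt3a in Cluster 1, Mbd1 in Cluster 12, Mbd1 and Mbd2 in IPCs), where 8.78% and 16.9% of all tests were called. Unthinned, 27 shares passed in place of 0. The RGC to PN log2 ratios of Tet2 (-0.11), Tet3 (-0.059) and Mbd2 (-0.20) were on the other side of 0 under TMM scaling. Dnmt3b in S against G2/M nuclei passed without EtOH embryo E1-1 or E2-3. With saline embryos alone, the S against G2/M test cannot pass at 5 embryos and was read as a value. No paired analysis was possible because no saline embryo has an EtOH partner, and only batch and dam could be blocked, as given above. Low counts limit Uhrf1 and Dnmt3b most, as 16 and 12 of their 25 cluster tests could not be made. With 2 dams per treatment, an effect of the dam and of EtOH cannot be told apart well.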
